A study of Caenorhabditis elegans with 11 samples.

Results

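The untreated worms of the series were described alone, as the resting transcriptome of a sterile adult nematode. They were chosen by their labels, which gave 4 of the 11 arrays as 3-day-old Caenorhabditis elegans without any stress (control 1 to control 4). The worms were hermaphrodites, the sex that makes its own sperm in the last larval stage and then only oocytes. Eggs from a strain kept at 16°C hatched overnight at 20°C, and the first-stage larvae were grown on peptone plates at 25°C to sterile young adults. The labels give the strain as TJ1090 and the design text gives TJ1060, a strain known for temperature-sensitive mutations in spe-9 and rrf-3 that leave animals raised warm without working sperm. No treatment, transgene or RNA interference is given for these 4 samples, and the labels do not say whether they came from separate cultures. The series asked which responses to high oxygen need the transcription factor SKN-1, and the 4 arrays of oxygen-treated worms and 3 arrays of worms with skn-1 RNA interference and oxygen are not used here.

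An adult hermaphrodite is to a large extent an egg-producing animal. Its intestine secretes yolk proteins, which growing oocytes take up, and its germ line loads those oocytes with stored mRNA, ribosomes and eggshell precursors. Its body cells no longer divide, and its epidermis has laid down the collagens of the adult cuticle. Major sperm proteins, by contrast, are the motility proteins of crawling sperm, and their genes are read in developing male germ cells.

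Each array was an Affymetrix C. elegans Genome Array hybridised with biotin-labelled cRNA made from 10 µg of total RNA of whole worms. The deposited values were linear signals, 1 per probe set and array. Each of 22548 probe sets was ranked within its array, and its rank was expressed as a percentile, with 100 for the brightest. A gene was read from its brightest probe set by averaged percentile, which gave 17118 genes with a median at percentile 47.02. A gene is called high where it lay at or above the 90th percentile on all 4 arrays and low where it lay below the 40th on all 4. By these definitions 1224 genes, or 7.15% of those ranked, were high, and 4514, or 26.4%, were low. Those shares are the background for every count of high or low genes below. Counts of list members by the order of the arrays, such as those highest on control 4, were not set against all genes. They describe the list alone and do not set it apart from other genes. No detection calls were used, so the 40th percentile stands in for a detection limit and low does not mean absent. No test between groups was made, because 1 group alone holds no comparison, and the closing section screens values with Dixon's ratio for an array far from the others. A rank reflects the binding strength of the probes as well as the transcript, and among 2981 genes with several probe sets the brightest and dimmest differed by a median of 8.44 percentile points. In whole-worm RNA, fewer cells of a type and less RNA per cell cannot be told apart.

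Percentiles varied least at the top of the range, where the scale has a ceiling, and control 4 stood apart from the other arrays. Spearman correlations across all probe sets were 0.948 for controls 1 and 2, 0.915 for controls 1 and 3, 0.914 for controls 2 and 3 and 0.885 for controls 3 and 4. Control 4 correlated at 0.834 with controls 1 and 2. Probe sets are not independent replicates, and all arrays share the same probe affinities, so these values are descriptions. The median SD of a gene's percentile over the 4 arrays was 1.04 points for genes averaging 90 to 100 and 11.97 points for genes averaging 20 to 30. A small SD in the brightest bin is partly set by that ceiling and does not show equal signals. Of the 171 genes in the top 1%, 143 were in the top 1% on every array. Control 4 lay more than 20 points below every other control for 759 genes and more than 20 points above them for 446, against 124 to 130 and 80 to 83 genes for each of the other arrays. The arrays also fell into sets that no label states. Spike-in probe sets had a median signal of 178 and 142 on controls 1 and 2 but 6.75 and 14.1 on controls 3 and 4. The median signal of all probe sets was 27.4, 28.5, 57.4 and 67.5 on controls 1 to 4, and the total signal ran from 6877700 to 9138000. The ratio of the 3′ to the 5′ probe set for glyceraldehyde-3-phosphate dehydrogenase was 1.17, 1.16, 1.14 and 0.918. For actin the same ratio was 2.16, 2.20, 2.47 and 2.04. For ubiquitin it was 7.82, 8.59, 5.86 and 5.74, so an excess of 3′ signal was present on every array and was larger on controls 1 and 2. The design text names 2 processing sites without saying which array went where, so sites and sets cannot be matched. What set control 4 or the sets apart was not tested. Values on each array are given for a number of the lists and genes that moved with them.

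**Figure D1:**
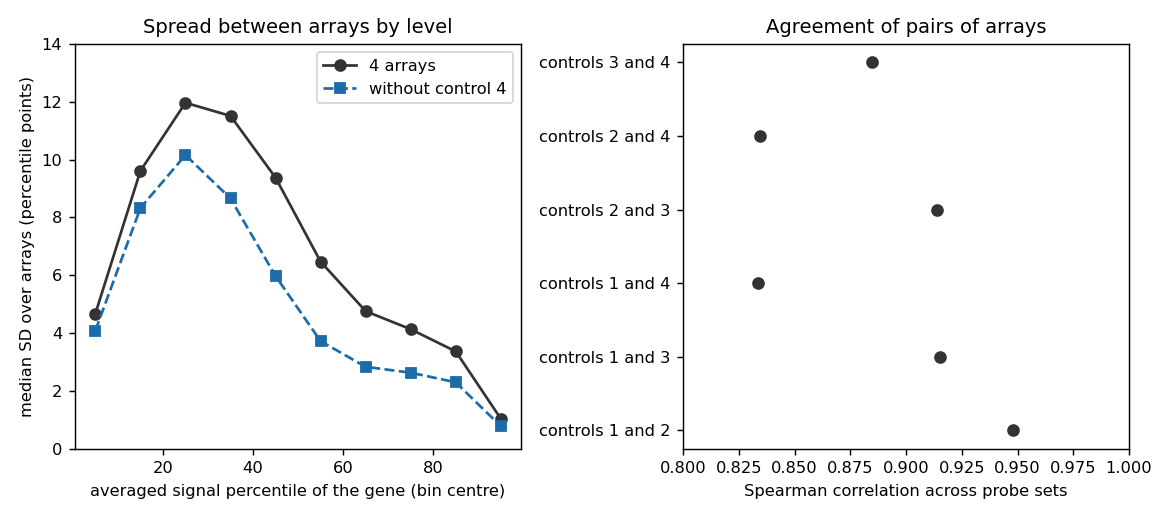
Agreement between the 4 control arrays. Left, the median SD of a gene's signal percentile over the arrays, in percentile points, for genes binned by their averaged percentile, with all 4 arrays (circles) and without control 4 (squares). Right, the Spearman correlation across probe sets for each pair of arrays. The spread peaks at 11.97 points in the bin from 20 to 30 and falls to 1.04 in the brightest bin, and the lowest correlations are those of control 4 with controls 1 and 2.

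Yolk and ribosomes filled the top of the list. The brightest gene was vit-5, which encodes a vitellogenin, the lipid-carrying yolk protein made in the intestine. Its signals were 11845, 12356, 11268 and 17905 on controls 1 to 4. It ranked first of 17118 genes, and vit-4 and vit-6 ranked 3 and 4. All 5 vitellogenin genes on the array were high and within the top 1%, with vit-1 at rank 83 and vit-2 at rank 120. Vitellogenin genes are close copies of each other, so their probe sets can bind each other's transcripts and the order among them is uncertain. Cytosolic ribosomal protein genes supplied 18 of the 30 brightest genes and 75 of the 171 in the top 1%. Of their 80 members 79 were high, with a list median at the 99.6th percentile on every array. The exception was rpl-42, a protein of the large subunit, whose 1 probe set gave signals of 1.6, 14.6, 22.6 and 37 and lay at 28.3 ± 12.5 (averaged percentile ± SD, n = 4). The elongation factor gene eef-1A.1, whose product brings aminoacyl-tRNA to the ribosome, ranked 6. Its signals were 8908, 9374, 9843 and 16198, so control 4 was the highest in linear signal while its percentiles differed little (SD 0.0323 points).

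The remaining genes of the 30 brightest were mostly cuticle collagens. They were col-119 (rank 2), col-93, dpy-13, col-160, sqt-3 and col-122. The signals of col-119 were 12635, 12873, 12078 and 15597, which made it the brightest gene on controls 1 to 3. The other genes were sip-1, a small heat shock protein gene known from oocytes and embryos, at rank 11, and clec-87, a C-type lectin-domain gene, at rank 29. Of the 171 genes in the top 1%, 138 belonged to at least 1 of the 58 lists drawn up for this description and 33 to none. By list, the top 1% held 75 ribosomal proteins, 18 collagens, 7 oocyte and eggshell genes, 6 oxidative phosphorylation genes, and 5 each of vitellogenins, translation factors and proteases. Probe sets whose identifiers mark them as able to bind several transcripts (_s_at or _x_at) made up 158 of the 225 brightest probe sets. Because such probe sets can be shared, the exact order among near-identical family members is uncertain. With those left out, 81 of the 171 genes stayed in the top 1%. Genes with no other probe set then leave the ranking, so that count does not measure this uncertainty. Ribosomal protein genes, for example, then numbered 37, with a median of 99.59.

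**Figure D2:**
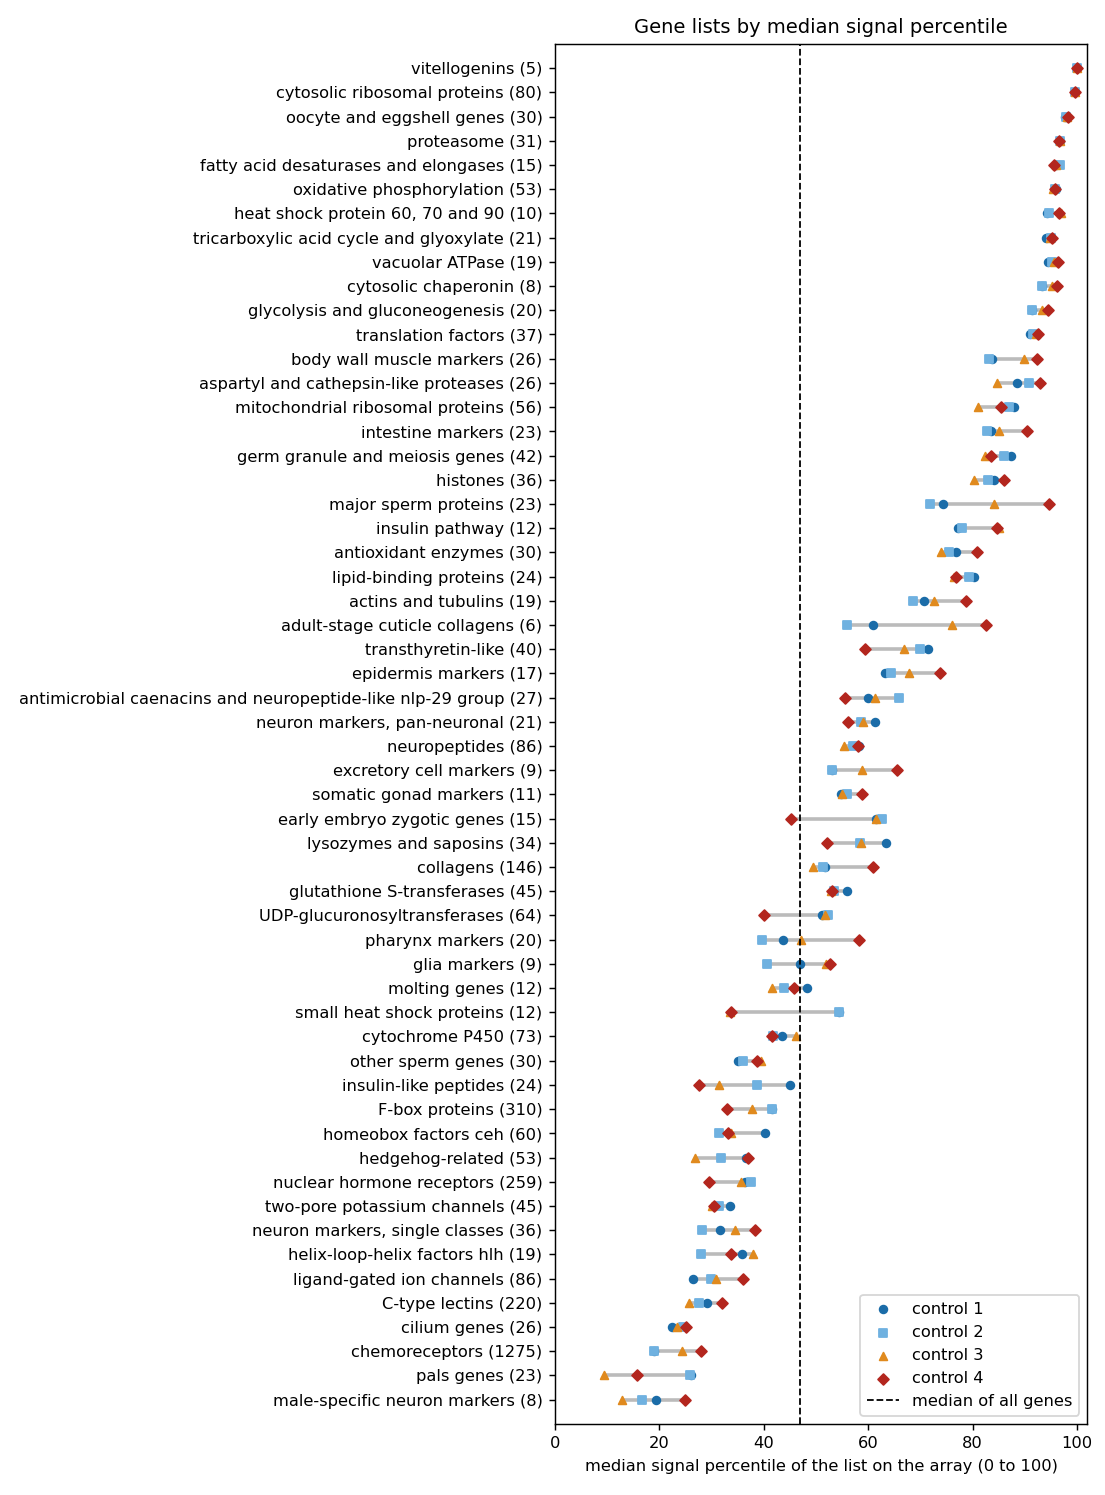
Median signal percentile of gene lists on each control array. Each row is a list with its number of genes in brackets, each symbol the median percentile of the list on 1 array, and the dashed line the median of all genes. Vitellogenins, ribosomal proteins and oocyte genes sit at the top with nearly equal symbols, and chemoreceptors, pals genes and markers of male neurons at the bottom. Major sperm proteins and small heat shock proteins are spread widest among the lists of 10 or more genes.

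The machinery that makes, folds and breaks down protein was bright throughout. Of 31 proteasome subunit genes 29 were high, with a median of the 96.5th percentile, led by the regulatory ATPase gene rpt-3 at 98.1 ± 0.226. The lowest was pas-7, a core-particle subunit gene, at 83.9 ± 5.63. Among 37 translation factors 18 were high and 0 were low. The cytosolic chaperonin, which folds actin and tubulin, had 5 of its 8 subunit genes high. Its members cct-3 and cct-8 averaged 44.9 ± 11.6 and 58.7 ± 9.28, although the subunits occur in equal number in the complex. Of 10 chaperone genes of the HSP60, HSP70 and HSP90 families 7 were high, with the cytosolic chaperones hsp-90 and hsp-1 at 99.2 ± 0.238 and 99.1 ± 0.184. The mitochondrial chaperonin gene hsp-60 gave signals of 319.5, 446.2, 2349 and 3199, so that controls 3 and 4 lay well above controls 1 and 2. The heat-inducible hsp-70 averaged 23.9 ± 13.1, with signals of 5.4, 5.5, 4.5 and 48.8. Mitochondrial ribosomal protein genes lay lower than the cytosolic ones. Their 56 members had a median of 85.0, and 4 were high, a share of 7.14% that is close to the background.

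Small heat shock proteins were split. Of 12 genes 2 were high and 3 (25%) were low, a low share near the background of 26.4%. The constitutive or developmentally expressed genes sip-1 and hsp-25 were high, at 99.9 ± 0.139 and 92.1 ± 1.2, and hsp-43 averaged 88.7 ± 1.58. The genes best known for induction by heat and proteotoxic stress were dim. Percentiles of hsp-16.2 were 41.4, 43.2, 30.4 and 4.74, and the related hsp-16.41, hsp-16.20 and hsp-16.21 averaged 27.1 ± 13.7, 27.5 ± 10.2 and 13.2 ± 11.6. Each of these related genes was read from its 1 probe set, of a type not marked as shared, so any signal shared between them cannot be judged. The list median was 54.4 and 54.5 on controls 1 and 2 and 33.6 and 33.7 on controls 3 and 4. That gap follows the array sets described above, and its source was not tested.

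Energy metabolism was likewise bright. Of 53 oxidative phosphorylation genes 35 were high (median 95.2), led by the cytochrome c gene cyc-2.1 at 99.2 ± 0.0846 and the adenine nucleotide carrier gene ant-1.1 at 99.1 ± 0.0906. Its relative ant-1.2 averaged 18.4 ± 14.1 and was low. Among genes carried by the mitochondrial genome, which were picked out after their values were seen, 7 of the 8 on the array were high. The cytochrome oxidase gene COX3 averaged 99.4 ± 0.0757, and ND5, a complex I gene, was the exception at 66.3 ± 5.85. Of 21 genes of the tricarboxylic acid cycle and glyoxylate route 13 were high, with malate dehydrogenase mdh-1 leading at 99.1 ± 0.0764. Of 20 genes of glycolysis and gluconeogenesis 10 were high, led by the aldolase gene aldo-2 at 99.3 ± 0.0556. The phosphofructokinase gene pfk-1.2 averaged 25.0 ± 9.49 and was the only low member of that list. Of 19 genes of the vacuolar ATPase, the proton pump of acidic organelles, 11 were high and 0 low. Its lowest member was vha-5, known for its role in the epidermis and excretory cell, at 64.5 ± 2.02.

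The oocyte programme was bright throughout. All 30 oocyte and eggshell genes averaged above the 88th percentile, 27 of them were high and 7 were in the top 1%. The chondroitin proteoglycan genes cpg-2 and cpg-1, whose products form a layer of the eggshell, averaged 99.6 ± 0.0795 and 99.5 ± 0.225. Signals of cpg-2 were 6953, 7357, 7471 and 10640, with control 4 the highest. The vitelline-layer gene perm-4 and the oocyte RNA-binding gene cey-2 followed at 99.4 ± 0.235 and 99.3 ± 0.102. The 4 probe sets of perm-4 disagreed, with the dimmest at 37.5. The lowest member was lin-41, which keeps oocytes from maturing early, at 88.3 ± 2.96. The list's median differed little between arrays (97.8, 97.9, 98.2 and 98.2).

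Genes of germ granules, germ cell regulation and meiosis were less bright, and none was low. Their 42 members had a median of 84.0, and 11 were high. The brightest were gld-1, which encodes a translational repressor in the germ line, at 97.4 ± 0.184 and the RNA granule gene car-1 at 97.3 ± 1.19. The Argonaute genes wago-1 and prg-1, which act with germ line small RNAs, averaged 97.1 ± 0.638 and 96.8 ± 0.429. The lowest was him-14, a MutS homolog needed for crossovers. Its signals were 159, 137, 190 and 3.1, so controls 1 to 3 agreed and control 4 alone was at the bottom of its range. Histone genes, with 36 members on the array, had a median of 82.9 and 10 high members. The linker histone gene hil-5 led at 99.1 ± 0.32, followed by the variants htz-1 and his-72.

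Among the tissue and germ line lists, the major sperm protein genes differed most between arrays. All 23 major sperm protein genes averaged above the 60th percentile, with a median of 81.8, and 0 were high on all 4 arrays. For msp-65, the brightest, the signals were 526, 470, 1532 and 3889 on controls 1 to 4. For msp-78 they were 460, 370, 1446 and 4258. In both genes controls 1 and 2 were similar, control 3 was brighter, and control 4 was brighter again. The same order held across the family. Controls 3 and 4 both exceeded controls 1 and 2 for all 23 genes, and control 4 was the highest for all 23. The family's median percentile was 74.3, 71.8, 84.2 and 94.6, and without control 4 the averaged median was 77.5. These genes are near-identical copies, every one of them was read from a probe set of the _x_at type, which is shared between transcripts, and so the 23 values may repeat 1 measurement rather than 23. The 1 gene that also had an unshared probe set averaged 42.5 in it.

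**Figure D3:**
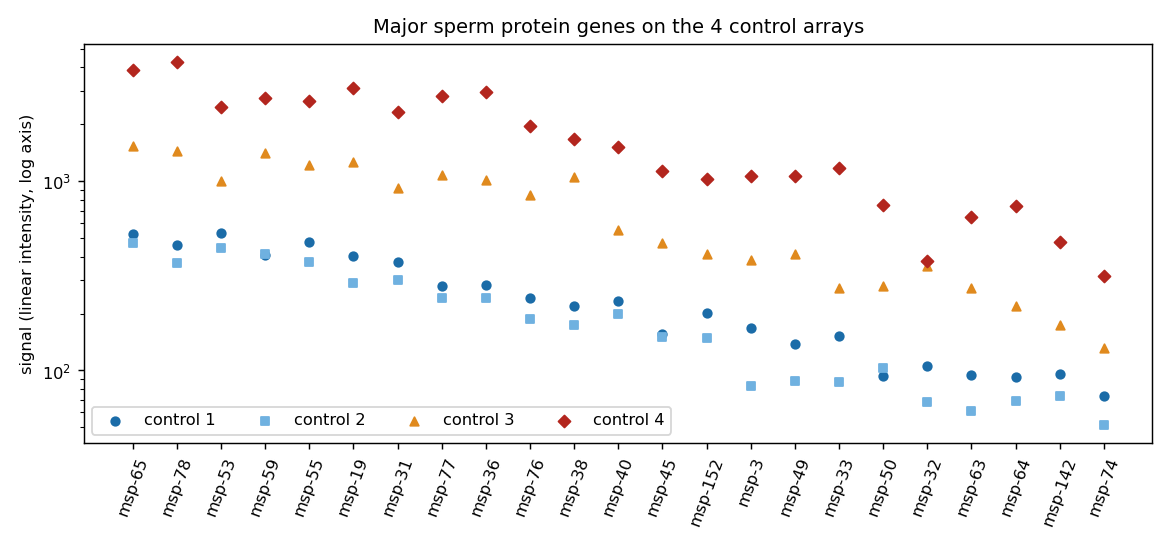
Signals of the 23 major sperm protein genes on the 4 control arrays, as linear intensity on a log axis, with genes ordered by averaged percentile. Control 4 lies highest for every gene, control 3 second, and controls 1 and 2 lie below both.

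Other sperm genes did not share that level. Their 30 members had a median of 38.7, 13 of them (43.3%) were low and 0 were high. The brightest, swm-1 and spe-39, at 86.4 ± 3.97 and 85.9 ± 2.6, are not confined to sperm. The first encodes a secreted protease inhibitor that keeps sperm inactive in males, and the second is a vesicle-trafficking gene used in many cells. The transcription factor gene spe-44, which starts the sperm programme, averaged 72.5 ± 3.29. The gene spe-9, whose product sits on sperm and is needed to fertilise the oocyte, was low, with signals of 5.9, 1.9, 5 and 18.2. The sperm membrane gene spe-49 was the lowest member, at 2.67 ± 1.02. Among these 30 genes control 4 was the highest array for 18 and the lowest for 5, counts not set against all genes. Controls 3 and 4 both exceeded controls 1 and 2 for 12 of them, the reverse held for 5, and the list medians were 35.01, 35.98, 39.5 and 38.6. Of the 12, 2 were named for their order after their values were seen. The sperm phosphatase gene gsp-3 gave signals of 11.1, 13.6, 55.4 and 142.5 on controls 1 to 4, and ssp-16, a gene of the sperm-specific family related to major sperm proteins, gave 60.1, 35.5, 151.7 and 319.6. What this gradient between arrays reflects was not tested. The deposited signals measure transcript and cannot show the sequence change in the strain's mutated genes. The second gene known to be mutated in TJ1060, rrf-3, an RNA-directed RNA polymerase of the small RNA pathway, had percentiles of 58.9, 59.8, 59.6 and 20.7.

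Genes first transcribed in the embryo served as a check for embryos in the samples. Among 15 of them 3 (20%) were low, against 26.4% of all genes, and 0 were high. Their median was 54.2, above the 47.02 of all genes, so these values do not show that embryos were absent. Members of the list ran from ceh-51 at 13.3 ± 11.2 to tbx-11 at 75.5 ± 2.26, and sdz-28 gave percentiles of 82.6, 83.5, 78 and 45.1. The list median was 61.5, 62.6, 61.5 and 45.1, with control 4 alone low, and it was 62.5 without that array. By gene, control 4 was the lowest array for 7 of the 15 and the highest for 6. Male-specific neuron markers averaged at or below the 27.1th percentile in all 8 cases, and 6 of them were low. Of the polycystin genes, whose products sense mates in males, pkd-2 was low at 21.5 ± 6.13. The other, lov-1, averaged 27.1 ± 13.8 and was not counted as low, since it lay at 46.1 on control 2.

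Genes of the intestine were bright. Of 23 intestine markers 10 were high and 0 low, and their median was 84.4. By array the median was 83.5, 82.7, 84.96 and 90.4, with control 4 the highest. Besides the vitellogenins, the leading marker was asp-1, a lysosomal aspartyl protease of the gut, whose signals were 6973, 6838, 7530 and 13902. The lowest was the ferritin gene ftn-1, an iron store of the gut, at 56.6 ± 9.75. Aspartyl and cathepsin-like proteases, many of them digestive, had 12 of 26 members high, among them cpl-1, asp-6 and asp-5 at 99.3 ± 0.178, 99.3 ± 0.2 and 99.1 ± 0.0528. Its lowest member was asp-11 at 13.03 ± 12.4. Enzymes of fatty acid desaturation and elongation, which supply polyunsaturated and branched-chain lipids, had 8 of 15 members high and a median of 96.4. They were led by elo-1, elo-5 and elo-6 at 98.3 ± 0.22, 98.2 ± 0.601 and 98.2 ± 0.268, and fat-2 averaged 97.9 ± 0.241. Lipid-binding proteins were uneven, with 7 of 24 members high, 2 low and a median of 76.8. The fatty-acid- and retinol-binding genes far-2 and far-1 averaged 99.4 ± 0.143 and 98.8 ± 0.0373, and lbp-9 98.9 ± 0.263. The lowest was acbp-4 at 7.55 ± 2.42.

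Defence families were uneven, and in each of them most members were not high. Of 34 lysozymes and saposins 10 were high and 11 low. The invertebrate-type lysozyme gene ilys-5 was the brightest at 99.3 ± 0.0961, followed by lys-1, lys-7 and lys-8 at 98.1 ± 0.295, 97.3 ± 1.1 and 97.2 ± 0.661. Its relative ilys-6 averaged 1.94 ± 1.57. C-type lectins had 220 members on the array with a median of 28.3, and 105 (47.7%) were low, while 8 (3.64%) were high. Members averaging above the 90th percentile in this otherwise dim family were clec-87, clec-63, clec-88, clec-91, clec-50, clec-1, clec-266, clec-186 and clec-150. The antimicrobial caenacin and nlp-29 group, made largely in the epidermis, had 0 of 27 members high. Its member cnc-7 had percentiles of 93.2, 94.4, 93.5 and 67.2, and nlp-28 had 89.3, 88.5, 92.5 and 76.1, with control 4 the lowest in both. Of the 27 members 15 were lowest on control 4, a count not set against all genes. The pals genes, known for induction by intracellular infection, had a median of 20.9, and 15 of 23 were low. Their medians were 25.9, 25.8, 9.42 and 15.7 on controls 1 to 4, but the members did not share that order. Controls 3 and 4 both lay below controls 1 and 2 for 5 genes and above them for 5. Control 4 was the highest array for 10 and the lowest for 4. The brightest of them, pals-29 and pals-26, averaged 50.0 ± 8.2 and 50.0 ± 10.9.

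The collagen family ran from some of the brightest genes of the worm down to low ones. Of 146 collagen genes 32 (21.9%) were high, 21 (14.4%) were low and 18 were in the top 1%, with a family median of 51.8. At the bottom lay col-58 at 10.8 ± 6.01. Collagens known for the adult cuticle were themselves split. The signals of col-19, a standard marker of the adult epidermis, were 2835, 2435, 3275 and 4471, and col-140 averaged 99.7 ± 0.06. The collagens of the struts between the cuticle layers were lower, with bli-1 and bli-2 at 36.2 ± 5.01 and 30.5 ± 12.2. The body-shape collagen gene rol-6 gave signals of 19.4, 5.7, 191 and 214, so that controls 3 and 4 lay well above controls 1 and 2. The brightest collagens also included dpy-13 and sqt-3, known from mutants of changed body shape. The 2 probe sets of sqt-3 disagreed, with the dimmer at 64.1, and dpy-13 had only 1, of the _x_at type. Genes of molting itself lay near the background. Of 12 genes 0 were high and 3 (25%) were low, against 26.4% of all genes. Their median of 43.4 was close to the 47.02 of all genes. The precuticle genes noah-1 and noah-2 led them at 68.1 ± 4.42 and 65.3 ± 4.51. Epidermis markers had a median of 64.6, which fell to 52.6 with the mean of a gene's probe sets, and 1 of 17, the transcription factor gene lin-26, was high at 91.2 ± 0.617.

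Muscle was bright in the body wall and middling in the pharynx. Body wall muscle markers had 10 of 26 members high and a median of 88.6. The leading genes were the myosin light chain gene mlc-2, the troponin C gene pat-10 and the actin gene act-4, at 98.9 ± 0.257, 98.7 ± 0.0694 and 98.5 ± 0.406. The lowest was hlh-1, the MyoD homolog that specifies these cells in the embryo, with signals of 11, 4.1, 4 and 3.3. Body wall muscle markers had medians of 83.7, 83.2, 89.9 and 92.3, so the values were higher on controls 3 and 4. Pharynx markers had 0 of 20 members high, 4 low and a median of 46.3, near that of all genes. Troponin genes of the pharynx, tnc-2 and tni-4, averaged 67.9 ± 5.52 and 64.6 ± 4.88. The medians of this list were 43.8, 39.7, 47.1 and 58.1, again with control 4 the highest. Among actins and tubulins 8 of 19 were high. The general tubulin genes tba-2, tbb-2, tba-1 and tbb-1 led at 98.9 to 99.4, while the ciliary alpha-tubulin gene tba-6 averaged 22.6 ± 7.3.

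**Figure D4:**
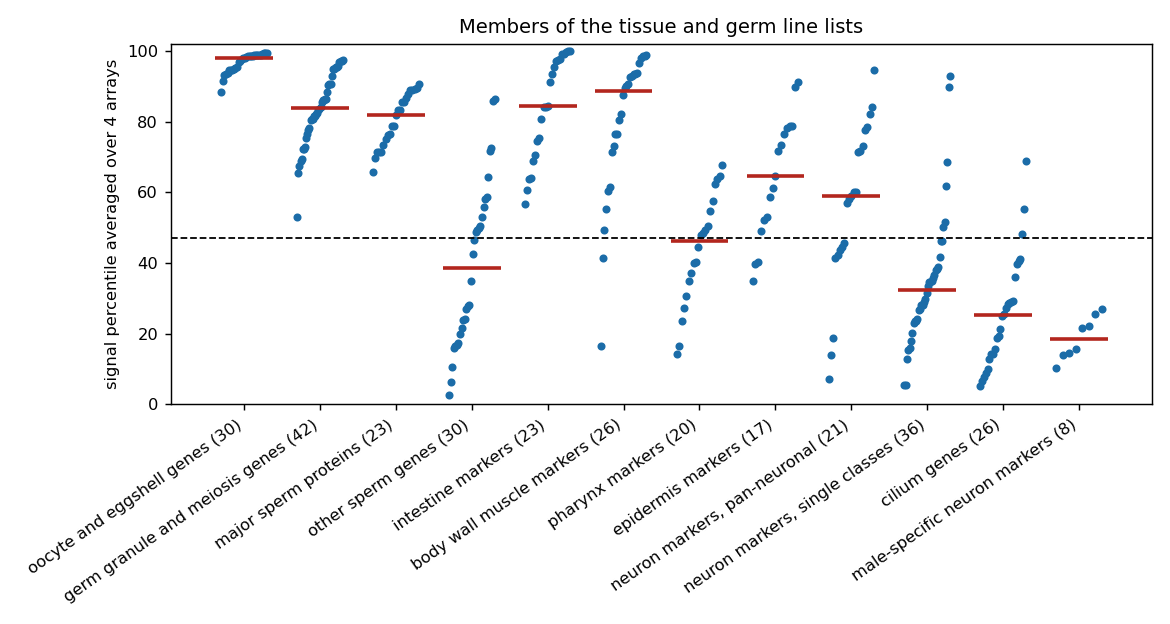
Members of 12 tissue and germ line lists, by averaged signal percentile over the 4 control arrays. Each point is a gene, ordered within its list, red bars are list medians and the dashed line is the median of all genes. Oocyte and eggshell genes crowd the top with a median of 98.0, whereas cilium genes and male-specific neuron markers have medians of 25.2 and 18.5.

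Pan-neuronal markers ranked above the median of all genes, and markers of single neuron classes and cilium genes below it. The pan-neuronal list had a median of 58.9. Of its 21 members 2 (9.52%) were low, against 26.4% of all genes, and 1 (4.76%) was high, against 7.15%. The high one was the synaptobrevin gene snb-1 at 94.7 ± 0.563. The endocytosis gene ehs-1 and the neuropeptide-processing genes egl-21 and sbt-1 followed at 84.0 ± 0.367, 82.1 ± 4.8 and 78.6 ± 3.43. The gene unc-31, needed for dense-core vesicle release, lay at 7.21 ± 4.21. Markers of single neuron classes had a median of 32.5, with 1 of 36 high and 11 low. The brightest were tbh-1 and tdc-1, enzymes of octopamine and tyramine synthesis that are also known from the gonadal sheath and uterine cells. The signals of tbh-1 were 1348, 1044, 967 and 998. In the brightest of its 3 probe sets tdc-1 averaged 89.8 ± 1.34, and in the dimmest 28.8. Somatic gonad markers had 0 of 11 members high, 1 low and a median of 55.3. The sheath gap junction gene inx-8 led them at 92.5 ± 4, and the lowest was egl-43, a zinc finger gene known for its role in the anchor cell, at 15.04 ± 12.98. Cilium genes had a median of 25.2, and 16 of 26 (61.5%) were low. The brightest of these was daf-19, the regulatory factor that turns on ciliary genes, at 69.0 ± 0.733. Glia markers had a median of 44.6 and excretory cell markers 55.5, with 0 high in either. The aquaporin gene aqp-8 led the excretory list at 89.2 ± 3.03, and the glutamate transporter gene glt-1, also known from muscle and epidermis, led the glia list at 91.3 ± 2.41. Of the 2 coelomocyte markers, cup-4 averaged 55.2 ± 7.61 and unc-122 was low at 34.3 ± 3.63.

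Large receptor and regulatory families lay below the median of all genes. Chemoreceptors, the G-protein-coupled receptors of sensory neurons, were the largest, with 1275 genes and a median of 22.4. Of these 799 (62.7%) were low, 0 were high and 4 averaged above the 60th percentile. The brightest was srv-1, with signals of 187, 194, 175 and 212. Control 4 was the highest array for 614 of the 1275 and the lowest for 183, counts not set against all genes. The family medians were 19.03, 18.9, 24.2 and 27.9. Nuclear hormone receptors numbered 259 with a median of 33.2, 100 low and 0 high. The leading receptor was nhr-49, a regulator of fat metabolism, at 89.2 ± 1.89. Homeobox genes of the ceh series and helix-loop-helix genes had medians of 35.8 and 32.4 with 0 high. Their brightest members were ceh-38 at 85.6 ± 3.55 and the widely expressed E-protein gene hlh-2 at 75.3 ± 1.17. Ligand-gated ion channels and two-pore-domain potassium channels had medians of 31.5 and 32.8. Of 310 F-box genes, whose products pick substrates for ubiquitin ligases, 101 were low and 1 was high, fbxa-215 at 95.4 ± 2.92. Hedgehog-related genes had a median of 34.4 and 2 high members of 53, grd-3 and grd-5 at 97.1 ± 0.574 and 94.2 ± 0.5.

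Peptide signals were low to middling. Neuropeptide genes had a median of 57.2, and 1 of 86 was high, nlp-40, a gut-released peptide that times defecation, with signals of 1236, 1338, 967 and 789. Insulin-like peptides had a median of 37.6, with 9 of 24 low and 0 high. Their medians were 44.9, 38.8, 31.4 and 27.5 on controls 1 to 4. The brightest was ins-34 at 70.5 ± 1.39. The gut-expressed insulin gene ins-7 had percentiles of 68.2, 68.3, 42.8 and 36.5, higher on controls 1 and 2. Downstream of these peptides, 3 of 12 genes of the insulin pathway were high. They were the 14-3-3 genes par-5 and ftt-2 at 99.2 ± 0.166 and 96.6 ± 1.18 and the lipid phosphatase gene daf-18 at 95.1 ± 2.93. The kinase gene akt-1 averaged 90.1 ± 3.3, its relative akt-2 57.5 ± 5.41, and the transcription factor gene daf-16 79.4 ± 6.24. The receptor gene daf-2 was low at 12.9 ± 6.27 in the brightest of its 4 probe sets and at 2.60 in the dimmest. Transthyretin-like genes, a family of secreted proteins, had a median of 66.1 with 6 of 40 high, led by ttr-15 at 98.9 ± 0.267. The medians of this family were 71.5, 69.9, 66.9 and 59.3. Control 4 was the lowest array for 22 of the 40, a count not set against all genes.

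Several enzymes of redox defence ranked high without stress, and few of those of detoxification did. Of 30 antioxidant enzymes 6 were high, with a median of 77.2. The peroxiredoxin gene prdx-2 led with signals of 5005, 4902, 5112 and 7212, and the superoxide dismutase genes sod-1 and sod-2 averaged 97.8 ± 0.315 and 95.9 ± 0.864. The glutathione reductase gene gsr-1 averaged 96.9 ± 0.515. The neuronal thioredoxin gene trx-1 was the lowest at 16.8 ± 10.9. Glutathione S-transferases, which join glutathione to reactive compounds, had a median of 48.9, with 2 of 45 high and 9 low. These were gst-1 at 97.1 ± 0.27 and gst-7 at 93.7 ± 2.19, and gst-27 averaged 94.4 but had percentiles of 97.2, 97.2, 89.6 and 93.6. Of 64 UDP-glucuronosyltransferases 0 were high and 11 (17.2%) low, with a median of 46.7, led by ugt-22 at 90.2 ± 4.42. Of 73 cytochrome P450 genes 0 were high and 20 (27.4%) low, with a median of 42.9. The low shares of these families, 20% for the glutathione S-transferases, lay near or below the background of 26.4%. The brightest P450 genes were cyp-31A2, known for making eggshell lipids, at 87.3 ± 2.58, and cyp-31A5 at 83.3 ± 5.14.

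The regulator at the centre of the series, skn-1, lay at percentiles of 83.2, 83.4, 89.1 and 84.1 without stress. Its signals were 447, 442, 797 and 454, so control 3 was the highest and the other 3 were close together. The glutathione S-transferase gene gst-4, the source of the green fluorescent reporter that the design text names as an indicator of the response, varied more. Its signals were 211, 332, 774 and 146, and its percentiles 73.8, 79.6, 88.8 and 67.2. Both genes were brightest on control 3. The same array was also the brightest for cyp-35A2, a P450 gene known for induction by foreign compounds, with signals of 370, 541, 1565 and 150, and for cyp-35C1 with 559, 593, 1447 and 98.4. Control 4 was the lowest array for all 3 of gst-4, cyp-35A2 and cyp-35C1. Other members of their families differed, with gst-27 and cyp-31A5 lowest on control 3. The glutathione S-transferase list had medians of 56.0, 53.4, 52.8 and 53.1 on controls 1 to 4. The P450 list had medians of 43.4, 41.7, 46.1 and 41.6.

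Among genes averaging at or above the 60th percentile, the P450 gene cyp-35A3 had the widest range, with percentiles of 69.7, 74.3, 89.5 and 6.88. The next were rrn-3.56, mig-32, cpsf-2, cdr-2, mfap-1, B0285.3, mals-1, swt-6 and T22C1.6. In 9 of these 10 genes control 4 was the lowest array, while rrn-3.56, a ribosomal RNA gene, was lowest on control 3 with signals of 354, 850, 6.6 and 87.1. The chromatin gene mig-32 gave 733, 754, 712 and 17.1. Other genes followed the array sets instead. Controls 1 and 2 both exceeded controls 3 and 4 by more than 20 points for 212 genes, and controls 3 and 4 exceeded controls 1 and 2 for 184. An example of each kind, named after its values were seen, was ncbp-2, a cap-binding gene, with signals of 261, 430, 2.9 and 3.7, and egl-30, a G-protein alpha subunit gene, with 15, 21.2, 524 and 792.

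Signal ranks differed along the genome. The chromosomes of 17072 genes were known from the reference gene table, 8 of them mitochondrial. Among the 6 nuclear chromosomes, III and I had the highest medians, at 63.99 and 60.9, and the largest shares of high genes, at 10.9% and 9.72%. The X chromosome had the smallest share of high genes, 4.13%, although its median of 46.4 lay near that of all genes. The brightest genes on X included all 4 of vit-1, vit-2, vit-4 and vit-5. None of the 72 genes of the oocyte and germ line lists was on X, and 2 of the 80 ribosomal protein genes were. Chromosome V had the lowest median, 33.7, and the largest share of low genes, 37.998%. It carried 884 of the 1275 chemoreceptors, and without chemoreceptors its median was 40.0 and its share of low genes 31.3%, still the lowest and the largest of the 6 chromosomes. The medians of a chromosome differed little between arrays, with an SD of 0.257 points on X and 1.69 on V.

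**Figure D5:**
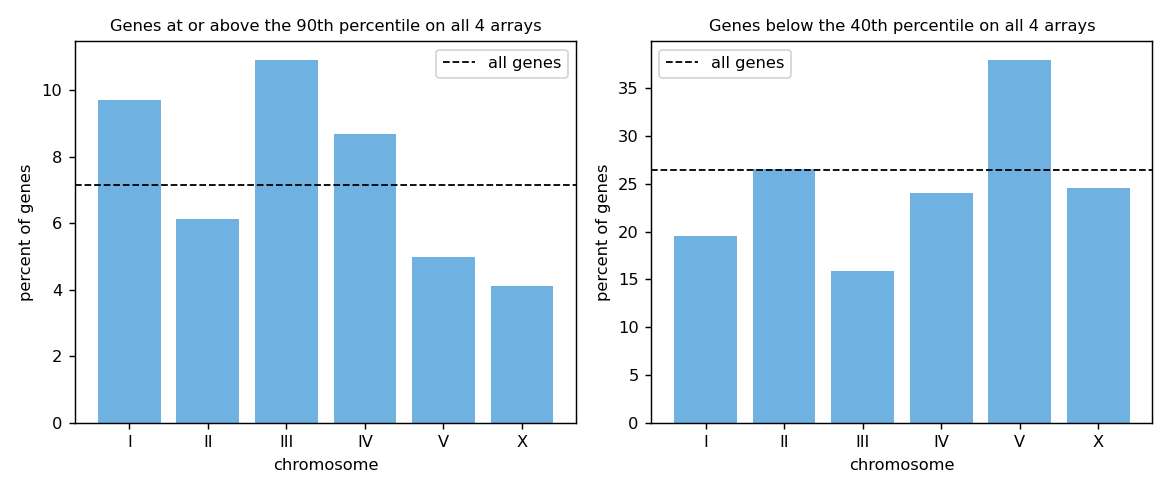
Share of genes per chromosome that were high (left, at or above the 90th percentile on all 4 arrays) and low (right, below the 40th on all 4), in percent. The dashed lines mark the shares over all genes, 7.15% and 26.4%. Chromosome III has the largest share of high genes and the X the smallest, and chromosome V has the largest share of low genes.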

How the data were processed

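The values were measured on total RNA of whole untreated worms, 1 Affymetrix array per sample (n = 4). The deposited values are intensities on a linear scale, 1 signal per probe set, for which the submitters' processing notes name MAS5 and GCOS 1.4. The scaling target, the background setting and detection calls are not given in the sources used here. Trimmed means (2% off each end) were 215 and 207 on controls 1 and 2 and 250.1 on controls 3 and 4, and the reason for the difference was not tested. Ranks within an array do not depend on multiplying its signals by a constant.

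The table held 22625 probe sets. The 77 manufacturer's controls were left out of the ranking. By GEO's platform annotation 20766 probe sets had 1 gene, 887 several and 895 none, and genes were named only from the first kind. Of the identifiers, 20701 were found in the reference gene table (RefSeq, assembly WBcel235, used for names and chromosomes only), and 0 symbols changed. Percentiles, averages and SDs over the arrays were computed with pandas 2.3.3 and numpy 2.4.6, and correlations with scipy 1.17.1. Recovery of known ranks was tested on simulated data. Lists were described by counts and medians, with no test.

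The samples, the 58 gene lists and the naming rule were chosen with earlier results of these data known, and the pattern for ribosomal proteins was widened after the files were read, to fit the annotation's spelling. Named were the 30 brightest genes, up to 4 leading members and the lowest of each list, every member averaging at or above the 90th percentile in lists with a median below the 40th, every member of lists of at most 12, the 10 genes averaging at or above the 60th percentile with the widest range, and skn-1, gst-4, spe-9 and rrf-3. The text may name fewer, and says so where a gene was named outside the rule. Alternatives covered averaging, the choice and type of probe set, the percentile limits, the array sets and leaving out each array. The number of arrays limits the precision.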

Additional observations from a re-analysis of the deposited data

Results flagged for a closer look

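The percentile of each named gene, the median of each list and several measures per array were screened for 1 array far from the other 3, with Dixon's ratio of the gap to the range. Of 239 values 23 stood out. Chance alone flags about 1 in 20 groups, but the named genes include the 10 with the widest range over the same arrays, so this count cannot be set against that rate. Control 4 was the array apart in 20 of them and control 3 in 3. What set these arrays apart was not tested.

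Control 4 was the low one for most of these genes. Its percentile was 4.198 for him-14, 20.7 for rrf-3, 20.8 for cpsf-2, 31.97 for mfap-1 and 24.2 for mig-32, where the other controls lay at 58.9 or above. It was 20.5 for B0285.3, 20.3 for T22C1.6 and 17.98 for cdr-2, against 69.9 or more elsewhere. Milder drops were 45.1 for sdz-28, 67.2 for cnc-7, 90.7 for daf-18 and 91.1 for fbxa-215. At the very top, col-119 stood at 99.96 and sip-1 at 99.7 on control 4, differences of a fraction of a point. By list, the UDP-glucuronosyltransferases had a median of 40.0 on control 4 against 51.1 to 52.3, and the early embryo genes one of 45.1 against 61.5 to 62.6.

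Control 4 was the high one for pas-7 at 92.4, pals-26 at 66.2 and the mitochondrial gene ND5 at 75.02. Its ratio of 3′ to 5′ glyceraldehyde-3-phosphate dehydrogenase signal was 0.918, against 1.14 to 1.17. Control 3 stood apart for skn-1, at 89.1 against 83.2 to 84.1, for clec-150, at 89.5, and for srv-1, at 67.4.

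Over all 17118 genes the same screen picked 1493, or 8.72%, with control 4 apart in 982, control 3 in 262, control 1 in 136 and control 2 in 113.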

How the results depend on the processing

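No paired analysis was possible because the values come from 1 group and from no test. Without probe sets of the _s_at and _x_at types, 654 genes were high, 81 of the 171 brightest stayed in the top 1%, and the medians were 42.5 for major sperm proteins (1 gene), 27.9 for other sperm genes, 74.9 for body wall muscle, 44.6 for collagens, 88.96 for intestine, 22.2 for cilium, 94.1 for oxidative phosphorylation, 97.1 for oocyte, 99.59 for ribosomal protein and 99.45 for vitellogenin genes. The largest shifts among the other lists were 25.1 points for adult-stage cuticle collagens without those probe sets (66.6 to 41.4), 16.6 for the insulin pathway with the dimmest probe set (81.2 to 64.6) and 12.1 for epidermis markers with the mean. Limits at the 30th and 50th percentile gave 2449 and 6859 low genes, and the 95th gave 617 high ones. With the mean or the dimmest of a gene's probe sets, the medians were 99.55 and 99.47 (ribosomal), 99.45 in both (vitellogenins), 97.01 and 96.9 (oocyte), 94.8 and 94.5 (oxidative phosphorylation), 55.2 and 52.5 (pan-neuronal) and 23.5 and 20.5 (cilium), and the dimmest gave 81.0 for body wall muscle. Controls 1 and 2 alone gave 83.5 for body wall muscle, 86.5 for germ granule and meiosis, 34.8 for other sperm, 22.9 for cilium and 95.6 for oxidative phosphorylation genes. Controls 3 and 4 alone gave 55.8 for pan-neuronal, 98.2 for oocyte, 26.6 for cilium, 95.5 for oxidative phosphorylation and 99.62 for ribosomal genes. Centred log2 signals gave 42.03 for other sperm and 95.6 for oxidative phosphorylation genes, and the median of the percentiles gave 61.3 for pan-neuronal ones. The causes of these shifts were not tested, beyond the smaller number of genes or arrays that some settings use.

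Leaving out 1 array at a time gave 1232 to 1388 high and 4772 to 5440 low genes, moved 3 to 7 of the 171 genes out of the top 1%, and gave a mean Spearman correlation of 0.872 to 0.926 against 0.888 with all. The medians then ran over 86.7 to 89.9 (body wall muscle), 20.7 to 23.9 (chemoreceptors), 22.7 to 26.5 (cilium), 49.5 to 53.5 (collagens), 99.63 to 99.65 (ribosomal), 83.6 to 85.9 (germ granule and meiosis), 82.8 to 85.8 (intestine), 77.5 to 84.6 (major sperm proteins), 57.3 to 59.3 (pan-neuronal), 32.6 to 34.3 (nuclear hormone receptors), 97.8 to 98.0 (oocyte), 36.4 to 39.3 (other sperm), 95.04 to 95.3 (oxidative phosphorylation) and 99.97 for vitellogenins at both ends. No detection limit is known for these arrays, and the spread between arrays was widest from the 20th to the 30th percentile, so the order of dim genes is the least certain.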
